A study of Saccharomyces cerevisiae YPS1009 with 18 samples.

Results

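A barcoded plasmid screen was read for one comparison, the difference between 2 yeast strains in how extra gene copies fared over 28 days of culture. For each plasmid the change between the starting pool (T0) and day 28 was taken in AGY1612, a strain with an extra copy of chromosome XII, and the change in the euploid AGY1611 was subtracted from it. This strain difference uses 12 of the 18 samples, the T0 and day 28 pools of each strain, and covers all 4872 plasmid rows, of which 4507 were abundant enough to be tested.

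Both strains are haploid MATa derivatives, each a single line, of YPS1009, a wild yeast isolated from oak soil. AGY1612 has the chromosome XII duplication with a drug or histidine marker on each of its copies, and it is deleted for HIS3. AGY1611 has 1 copy of chromosome XII with the drug marker at the same site. The strains therefore differ in ploidy and at the histidine locus together, and the effects of these cannot be told apart. The study's screen methods, however, describe the euploid as dual-marked, which does not match the single marker given here for AGY1611 and was not resolved. The labels give strain numbers only, and ploidy was taken from the study's methods and from a header line of the table. Both strains carried the MoBY library, low-copy centromeric plasmids that each hold 1 yeast gene with its native flanks and a DNA barcode, and were grown in YPD with G418, the drug that selects for the plasmid. T0 is the frozen transformed stock. Day 28 pools are cells that still formed lawns on G418 plates, so a plasmid's share depends on growth, survival and regrowth together. Each group had 3 replicates, and which of them came from the same transformation of the library is not stated, so part of their spread may be technical.

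When yeast cells exhaust glucose they switch to respiration and then arrest, and the survivors of a long stationary phase are those that stay alive and can resume growth. Mitochondrial function, the vacuole, nutrient-sensing kinases and control of translation are all known to bear on that survival. A plasmid adds about 1 further copy of a gene. Its barcode share may thus reflect a modest rise in dosage, including any harm from an excess of one subunit over its partners. The paper reports a shorter life span for nearly all aneuploid strains that it followed. Whether unequal survival of the strains, or anything other than dosage, moved the shares was not tested.

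At a false discovery rate (FDR, the p-value of edgeR's quasi-likelihood test adjusted over all plasmids) under 0.1, 12 of 4507 plasmids, 0.266%, differed between strains. AGY1612 was the higher strain for 4 of them, 0.0888% (RNR2, COA1, FMP48 and POR1). It was the lower strain for 8, 0.178% (SBP1, NPL3, OM14, KSP1, SNF7, AIM39, KNS1 and VMA3). At an unadjusted p under 0.05 there were 131 plasmids higher in AGY1612 (2.91%) and 182 lower (4.04%). Within single strains, many more plasmids changed at this FDR: 317 rose (7.03%) and 584 fell (13.0%) in AGY1612, 20.0% together, against 231 (5.13%) and 428 (9.5%) in AGY1611, 14.6% together. The plot of the change in each strain shows where the 12 lie among all plasmids.

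**Figure D1:**
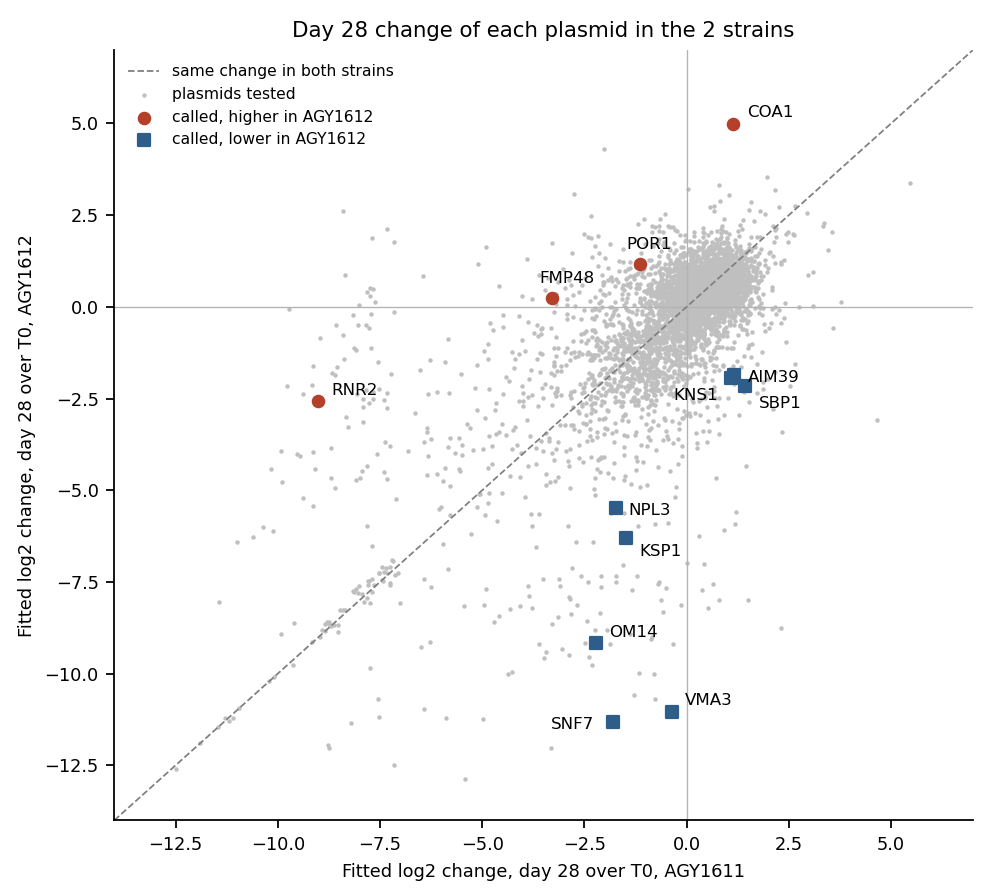
Fitted log2 change at day 28 over T0 in AGY1611 (x axis) and AGY1612 (y axis) for each of the 4507 plasmids tested, with the 12 that differed at FDR < 0.1 marked and a dashed line for equal change. COA1 sits at 5.0 in AGY1612 and 1.14 in AGY1611, while SBP1, AIM39 and KNS1 lie below 0 in AGY1612 and above 0 in AGY1611. SNF7 and VMA3 have 0 counts and OM14 2 counts in AGY1612 at day 28, and RNR2 1 count in AGY1611, so their fitted positions are not estimates of size.

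The depth and the spread set how small a difference could be seen. T0 libraries held 3491412 to 5211070 counts in AGY1612 and 6138798 to 6298768 in AGY1611, and day 28 libraries 503569 to 1338206 in AGY1612 and 717911 to 1302971 in AGY1611. The median standard error (SE) of the strain difference was 0.851 on the log2 scale, and 33 plasmids (0.732%) had a 95% interval that lay wholly between -1 and 1. In 3 equal bins of T0 abundance, the median SE was 1.61, 0.809 and 0.624 from low to high, and 2, 3 and 7 of the called plasmids lay in these bins. The fit took 1 spread per plasmid from all 6 groups, T0 included. A limma fit that weights groups by their spread gave mean weights of 5.796 (AGY1612) and 11.33 (AGY1611) at T0. Those of the day 1 and day 28 groups were 0.3137 to 0.4035, so T0 libraries varied less. The SE, interval and FDR of a day 28 difference may thus be too small throughout. All 3 day 28 libraries had 0 counts for 126 tested plasmids in AGY1612 and for 115 in AGY1611, 50 of them in both. For such a group a floor of 3 counts per library was used, which gives a lower bound, and for a group with 1 to 3 counts in all an exact Poisson interval is given. Barcode reads are PCR products without molecular identifiers, so these bounds and intervals cover counting error only. An FDR printed beside a bound or a counting interval is that of the fitted strain difference and does not test the bound.

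The calls depended on single libraries. Without 1 library in turn the number called was 18, 6 and 8 (day 28 replicates 1, 2 and 3 of AGY1612), 1, 3 and 3 (its T0 replicates), 27, 5 and 13 (day 28 replicates of AGY1611), and 1 without each of the 3 T0 replicates of AGY1611. SBP1 kept its call in all 12 of these fits. NPL3 kept it in 8, RNR2 in 6, OM14 in 5, KSP1, COA1 and SNF7 in 4, AIM39, KNS1 and POR1 in 3, FMP48 in 2 and VMA3 in 1. The direction of each stayed the same in all of them. Day 28 abundance, in counts per 1000000 after TMM scaling (CPM), did not overlap between the strains for 519 plasmids (11.5%). AGY1612 was above for 215 (4.77%) and below for 304 (6.75%). All 12 called plasmids were among these, as the plot of CPM by library shows. The calls were made from these same libraries, so the lack of overlap of the 12 is no separate support.

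**Figure D2:**
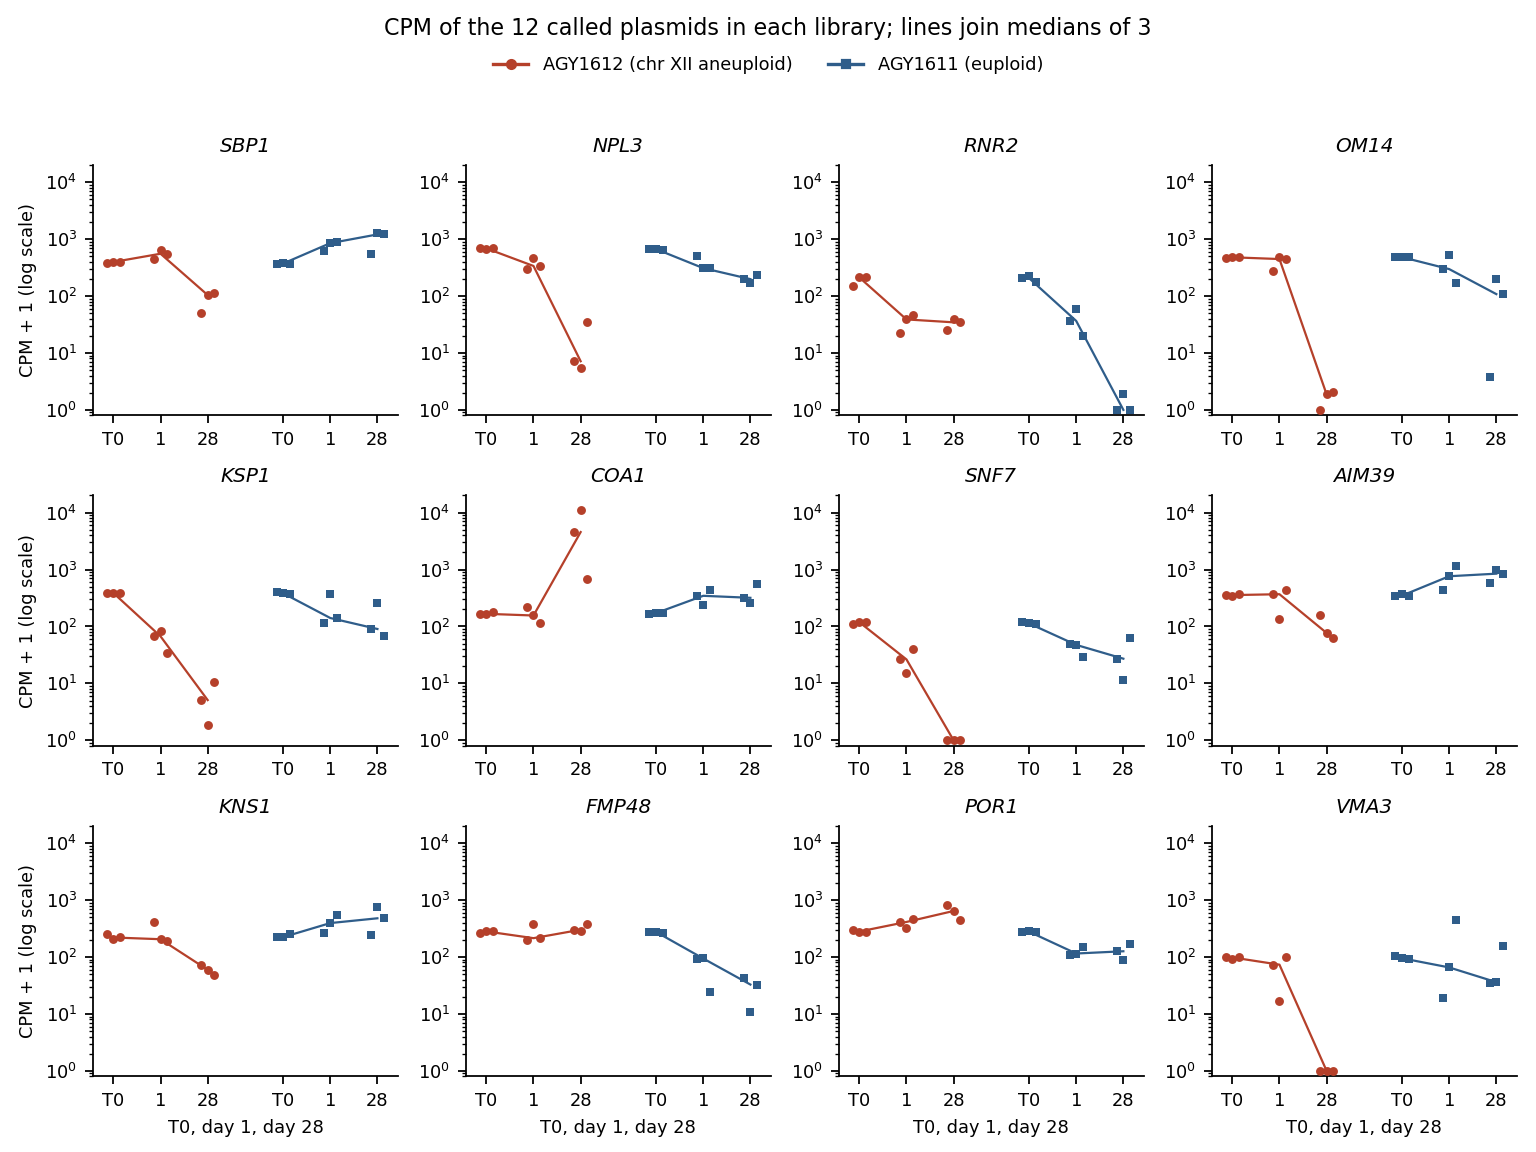
CPM + 1 (log scale) of the 12 called plasmids in every library at T0, day 1 and day 28, with AGY1612 on the left and AGY1611 on the right of each panel; points are replicates and lines join the medians of 3. At T0 the strains start at like levels, and at day 28 the 3 points of AGY1612 lie wholly above those of AGY1611 for RNR2, COA1, FMP48 and POR1 and wholly below for the other 8. The 12 were called with these same day 28 libraries.

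Mitochondrial genes stood on both sides. COA1, needed for an early step in the assembly of cytochrome c oxidase, was the plasmid that rose most of the called ones. At day 28 it stood at 4554, 10990 and 692 CPM in AGY1612, against 318, 254 and 561 CPM in AGY1611. The T0 values were 164 to 179 CPM in AGY1612 and 166 to 175 CPM in AGY1611. Every AGY1612 library at day 28 exceeded every AGY1611 library, but the AGY1612 libraries differed widely, and replicate 3 (692 CPM) stood near the highest AGY1611 value (561 CPM). The change was 5.0 ± 0.626 (SE) on the log2 scale in AGY1612 and 1.14 ± 0.539 in AGY1611. The difference of 3.85 ± 0.777 (14.4-fold, FDR = 0.0407) dropped to 2.87 without day 28 replicate 2 of AGY1612 (FDR = 0.157), and it was not called in a limma fit with group weights (FDR = 0.41) or in a fit to the 12 samples alone (FDR = 0.143).

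COX14 and COA3, whose products act together in holding newly made Cox1 and in restraining its translation, had the next 2 lowest p-values of the oxidase assembly list. COX14 reached 2954, 5519 and 921 CPM at day 28 in AGY1612 and 664, 485 and 496 CPM in AGY1611, so that these groups did not overlap either. Its change of 3.32 ± 0.464 in AGY1612 was called (FDR = 0.000143), and the 0.79 ± 0.428 in AGY1611 was not (FDR = 0.261). The strain difference was 2.53 ± 0.61 and missed the threshold (FDR = 0.119). COA3 was at 864, 1097 and 460 CPM in AGY1612 and 214, 185 and 150 CPM in AGY1611, a difference of 2.12 ± 0.598 (FDR = 0.244). In all 3 of these plasmids replicate 3 was the lowest AGY1612 library at day 28 and replicate 2 the highest.

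At day 1 the 3 plasmids did not show this order of the strains. COA1 was then at 216, 155 and 115 CPM in AGY1612 and 345, 239 and 436 CPM in AGY1611, and COX14 at 269, 386 and 731 CPM in AGY1612 against 538, 409 and 396 CPM in AGY1611. The strain differences at day 1 were -1.06 for COA1, 0.06 for COX14 and -0.83 for COA3. The day 1 and day 28 differences use the same T0 libraries.

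The oxidase assembly factors as a list lay on both sides. Of 36 tested, 3 were higher and 3 lower in AGY1612 at an unadjusted p under 0.05 (16.7%, against 6.94% of all plasmids), and the median difference of the list was -0.22, against -0.02 for all plasmids. The 3 lower members were SHY1, COA2 and COX15, which fall outside the naming rule and were picked after their values were seen. SHY1, which helps to insert haem into Cox1, had a difference of -3.06 ± 0.99 (FDR = 0.404). COA2, an assembly factor that works after Shy1, was at -1.84 ± 0.733 (FDR = 0.594), and COX15, which makes haem A, at -2.44 ± 1.02 (FDR = 0.631). All 3 fell in AGY1612 by the test of that strain alone (FDR = 0.0122, 0.0685 and 0.0753), and in AGY1611 their changes were 0.08, 0.38 and 0.42. The copper factors COX17, SCO1 and COX11 had differences of -0.01, 0.27 and -0.64, each with an interval that takes in 0.

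**Figure D3:**
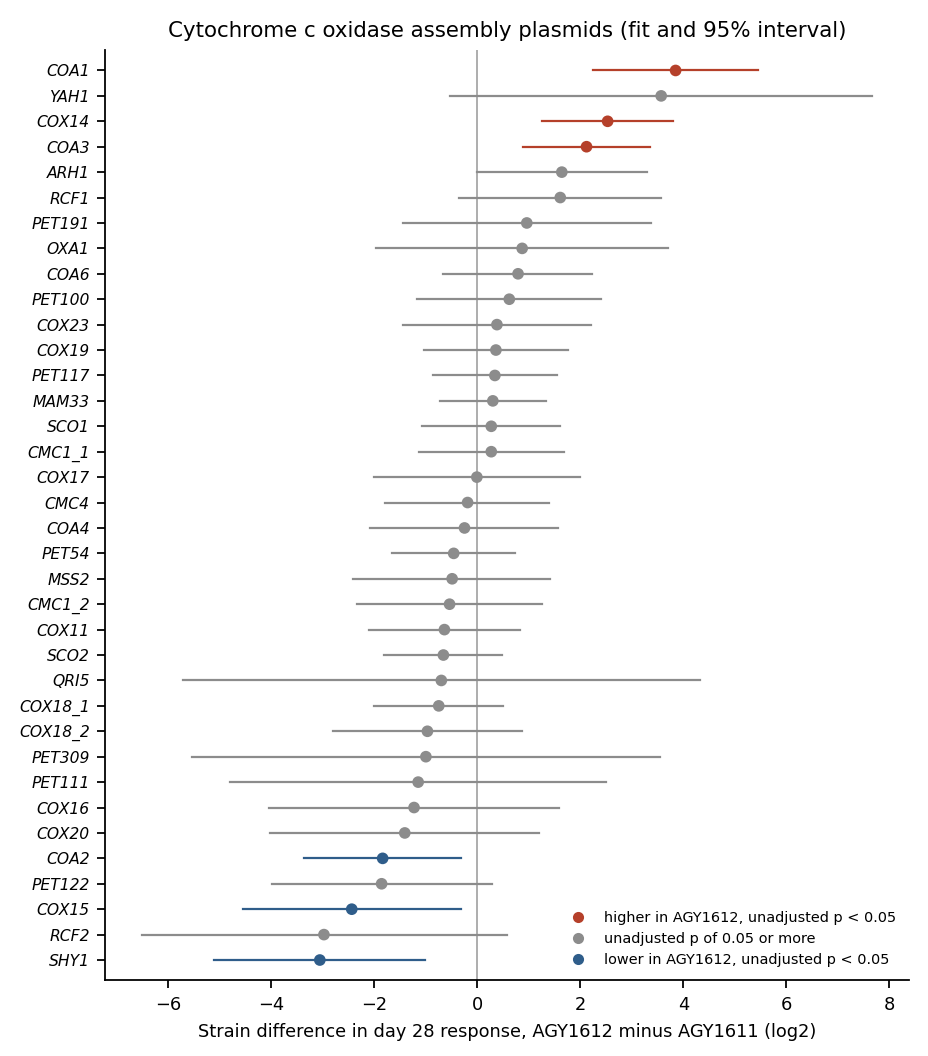
Strain difference in day 28 response (log2, AGY1612 minus AGY1611) with its 95% interval for the 36 tested plasmids of cytochrome c oxidase assembly genes, ordered by size. COA1 (3.85), COX14 (2.53) and COA3 (2.12) lie above 0 with intervals clear of it, SHY1 (-3.06), COX15 (-2.44) and COA2 (-1.84) lie below, and the other 30 have intervals that take in 0.

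Among 35 tested subunits of the respiratory chain and ATP synthase, 3 were higher and 1 lower at an unadjusted p under 0.05 (11.4%, against 6.94% of all plasmids), with a list median of 0.10. COX8, a small oxidase subunit, was at 1785, 1578 and 1307 CPM at day 28 in AGY1612 and 802, 502 and 510 CPM in AGY1611. Its difference was 1.75 ± 0.444 (FDR = 0.161), and at day 1 it was 1.11 (unadjusted p = 0.0196). The T0 levels of COX8 were 293 to 408 CPM in AGY1612 and 341 to 522 CPM in AGY1611. COX7, another small oxidase subunit, lay the other way at -1.51 ± 0.529 (FDR = 0.473), with 156, 140 and 220 CPM in AGY1612 and 269, 477 and 745 CPM in AGY1611. QCR2, a core protein of the cytochrome bc1 complex, was at 1.70 ± 0.613 (FDR = 0.527), and NDE1, an external NADH dehydrogenase named after its value was seen, at 1.92 ± 0.747 (FDR = 0.568). None of the 4 passed the FDR threshold.

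The mitochondrial outer membrane gave a call in each direction. POR1, the voltage-dependent anion channel, stood at 806, 642 and 449 CPM at day 28 in AGY1612, above all T0 values of that strain (276 to 295 CPM). In AGY1611 it stood at 125, 87 and 166 CPM, below all T0 values (276 to 285 CPM). It thus rose in AGY1612 (1.16 ± 0.36, FDR = 0.0365) and fell in AGY1611 (-1.15 ± 0.363, FDR = 0.0484), one of 3 plasmids called in opposite directions. The difference was 2.31 ± 0.511 (4.95-fold, FDR = 0.0652), and it lost its call with the replicate number as a block within strain (FDR = 0.11) and with group weights in limma (FDR = 0.143). The groups were already apart at day 1, with 411, 326 and 459 CPM in AGY1612 against 109, 114 and 148 CPM in AGY1611, a difference of 1.67 (unadjusted p = 0.00339). POR2, its paralogue, had 81, 25 and 435 counts in AGY1612 and 144, 86 and 24 counts in AGY1611, which overlap, and its difference of 1.47 ± 1.23 is compatible with values from -1.09 to 4.03.

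OM14, an outer membrane protein that receives ribosome-bound chaperone complexes at the mitochondrial surface, was nearly lost from AGY1612. Its day 28 levels there were 0, 0.873 and 1.08 CPM, against 2.71, 199 and 107 CPM in AGY1611, after 459 to 482 CPM at T0 in AGY1612 and 477 to 484 CPM in AGY1611. In AGY1612 it fell 605-fold (counting interval 167 to 4995), and in AGY1611 it also fell, with a log2 change of -2.22 ± 0.713 (FDR = 0.0519). The strain difference from the counts was -7.02 (counting interval -10.07 to -5.17, FDR = 0.0396). Replicate 1 of AGY1611, at 3 counts, came close to the AGY1612 libraries, and the FDR was 0.102 without day 28 replicate 2 of AGY1611 (fitted difference -5.96, against -6.96 with all libraries) and 0.121 and 0.104 without replicates 2 and 3 of AGY1612. The call was lost in the fit to 12 samples (FDR = 0.133) and in limma (FDR = 0.225). At day 1 OM14 was at 274 to 484 CPM in AGY1612 and 168 to 521 CPM in AGY1611, which overlap.

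Across the 27 tested plasmids of the outer membrane list, 2 were higher and 1 lower at an unadjusted p under 0.05 (11.1%, against 6.94% of all plasmids), and the median was 0.03, or 0.31 with plasmids at 0 counts set to the floor. The third was ALO1, which makes the yeast form of ascorbate and was at 4, 107 and 0 counts in AGY1612 against 0 in all AGY1611 libraries (FDR = 0.427). Of 69 mitochondrial ribosomal proteins, only MRPL8 had an unadjusted p under 0.05 (1.85 ± 0.813, FDR = 0.689), and the list median was -0.05. The 29 tested plasmids of mitochondrial import and folding had the lowest median of the lists (-0.56), with 1 higher and 2 lower (10.3%). These were AFG3, an inner membrane protease subunit (1.28 ± 0.592, FDR = 0.689), PAM16 of the import motor (-4.24 ± 1.43, FDR = 0.427) and SSC1, the matrix Hsp70 (-2.78 ± 1.31, FDR = 0.689). AFG3 rose in both strains, by 2.85 in AGY1612 and 1.57 in AGY1611 (FDR = 0.000387 and 0.0245).

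RNA-binding proteins gave the 2 lowest p-values, both with AGY1612 the lower strain. SBP1 encodes an RNA-binding protein that represses translation and promotes decapping of mRNA. At day 28 SBP1 stood at 49.2, 103 and 110 CPM in AGY1612 and at 549, 1271 and 1206 CPM in AGY1611, where every library was above the T0 range of 366 to 386 CPM. All AGY1612 libraries were below their own T0 range of 377 to 401 CPM. At day 1 the strains were closer, at 438, 642 and 552 CPM in AGY1612 and 616, 847 and 904 CPM in AGY1611, and the difference was -0.60 (unadjusted p = 0.232). The day 28 difference of -3.57 ± 0.506 is 11.9-fold (FDR = 0.0019), and over 12 fits that each left out a library it ran from -3.82 to -3.27.

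NPL3, an RNA-binding protein that accompanies mRNA through processing and export, fell in both strains but further in AGY1612. Its day 28 values were 6.15, 4.37 and 33.5 CPM in AGY1612 and 197, 168 and 232 CPM in AGY1611, after 663 to 696 CPM at T0 in AGY1612 and 652 to 672 CPM in AGY1611. The change was -5.49 ± 0.564 in AGY1612 and -1.74 ± 0.462 in AGY1611, and the difference -3.75 ± 0.685 (13.5-fold, FDR = 0.0366). Replicate 3 of AGY1612 was the high one of its group, and without it the difference was -5.31. At day 1 the means were 365 CPM in AGY1612 and 370 CPM in AGY1611, and the difference was -0.06.

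The rest of the RNA-binding list did not share this direction. Of 34 tested, 2 were higher and 3 lower at an unadjusted p under 0.05 (14.7%, against 6.94% of all plasmids), and the median was 0.12. WHI4, an RNA-binding protein that has a close relative in Whi3, was at 874, 1718 and 636 CPM in AGY1612 and 426, 418 and 313 CPM in AGY1611 (1.52 ± 0.521, FDR = 0.43). NAB2, a poly(A)-binding export factor, was at 2.63 ± 1.02 (FDR = 0.568). DED1, a helicase of translation initiation, had 1 count in AGY1612 and 26 in AGY1611 at day 28 (FDR = 0.689). NAB2 and DED1 were named after their values were seen. In mRNA decay 1 of 33 was higher and 1 lower, and in nuclear mRNA processing and export 1 of 31 was higher.

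Ribosome quality control, which clears stalled ribosomes and their unfinished chains, held no called plasmid among 20 tested, where 0.266% of all plasmids were called. At an unadjusted p under 0.05, 1 was higher and 1 lower (10.0%, against 6.94% of all plasmids). SLH1, a helicase that splits collided ribosomes, was at 5, 33 and 28 counts in AGY1612 and 4, 0 and 0 counts in AGY1611 at day 28 (4.11 ± 1.59, FDR = 0.568). VMS1, which releases unfinished chains from the large subunit, lay the other way, at 92.3, 64.6 and 76.7 CPM in AGY1612 and 169, 419 and 340 CPM in AGY1611 (-2.02 ± 0.892, FDR = 0.689). The list median was 0.10. RQC1 had 412, 396 and 661 CPM in AGY1612 and 311, 66.8 and 407 CPM in AGY1611, which overlap. It rose in AGY1612 (1.55 ± 0.556, FDR = 0.0666), and the AGY1611 change of 0.63 ± 0.547 was not called (FDR = 0.505). The strain difference of RQC1 was 0.93 ± 0.771 (FDR = 0.92), with an interval of -0.67 to 2.52. The intervals of HEL2 (-5.02 to 3.28) and RKR1 (-3.08 to 6.2), also called LTN1, were wider still, and no difference was detected for them.

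RNR2, a small subunit of ribonucleotide reductase, the enzyme that makes DNA precursors, was the only called member of its family. Day 28 counts of RNR2 were 12, 44 and 31 in AGY1612 and 0, 1 and 0 in AGY1611. The plasmid fell in both strains, by 2.57 ± 0.703 on the log2 scale in AGY1612 (FDR = 0.02) and 579-fold in AGY1611 (counting interval 104 to 22888). The difference from the counts was 6.6 (counting interval 4.12 to 11.9, FDR = 0.0396), and limma with group weights did not call it (FDR = 0.354). The single AGY1611 count was in replicate 2, and without that library the AGY1611 group is at 0. At day 1 the strains were alike in range, with 21.5 to 44.7 CPM in AGY1612 and 18.8 to 58.1 CPM in AGY1611. At day 28 AGY1612 held 24.6 to 38.4 CPM and AGY1611 at most 0.878 CPM.

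The other subunits were spread about 0. RNR1, the main large subunit, was at 0.37 (interval -1.13 to 1.88), RNR3, the damage-induced large subunit, at 0.08 (-2.41 to 2.57), and the 2 plasmid entries of RNR4, the partner of Rnr2, at 0.31 (-0.71 to 1.34) and -0.29 (-1.95 to 1.37). The signs of RNR3 and of the second RNR4 entry turned without single day 28 libraries. Of the 25 tested plasmids of ribonucleotide reductase and checkpoint genes, RNR2 alone had an unadjusted p under 0.05 (4.0%, against 6.94% of all plasmids). The list median was 0.29.

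KSP1, a kinase that acts with TOR signalling and holds back autophagy, was at 2, 1 and 9 counts at day 28 in AGY1612, against 99, 289 and 45 counts in AGY1611, after 385 to 390 CPM at T0 in AGY1612 and 377 to 400 CPM in AGY1611. It fell in AGY1612 (-6.31 ± 0.794, FDR = 4.7e-05), the AGY1611 change of -1.49 ± 0.605 was not called (FDR = 0.13), and the difference was -4.82 ± 0.951 (28.2-fold, FDR = 0.0396). With 12 counts in all in AGY1612 its size was uncertain, and the difference was -3.99 without day 28 replicate 2 of AGY1611 (FDR = 0.111), -4.17 without replicate 2 of AGY1612 (FDR = 0.113) and -6.06 without replicate 3 of AGY1612 (FDR = 0.0194). At day 1 KSP1 was at 66.2, 83.6 and 33.5 CPM in AGY1612 and 112, 364 and 140 CPM in AGY1611, a difference of -1.75 (unadjusted p = 0.0502).

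KNS1, a LAMMER family kinase downstream of TOR that represses RNA polymerase III, is itself on chromosome XII and so already has an extra chromosomal copy in AGY1612. It stood at 71.8, 58.5 and 47.6 CPM in AGY1612 and 242, 761 and 477 CPM in AGY1611 at day 28, after 203 to 255 CPM at T0 in AGY1612 and 220 to 253 CPM in AGY1611. In AGY1612 all 3 libraries were below T0 (-1.94 ± 0.46, FDR = 0.00983). The AGY1611 change of 1.09 ± 0.44 was not called (FDR = 0.127), and its replicate 1 lay within the T0 range. The difference was -3.03 ± 0.636 (8.15-fold, FDR = 0.0471), and limma gave it an FDR of 0.36. At day 1 it was -0.57.

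FMP48, a putative mitochondrial kinase, behaved the other way. It held 300, 287 and 383 CPM in AGY1612 at day 28, close to its T0 values of 258 to 285 CPM, while AGY1611 had 41.6, 9.66 and 31.8 CPM after 258 to 274 CPM. The change was 0.24 ± 0.522 in AGY1612 and -3.28 ± 0.581 in AGY1611, where it fell (FDR = 0.00132), and the difference 3.52 ± 0.77 (11.5-fold, FDR = 0.0652). AGY1611 was already low at day 1, at 93, 96.2 and 23.2 CPM against 197, 382 and 213 CPM in AGY1612, a difference of 1.87 (unadjusted p = 0.0202). Limma did not call FMP48 (FDR = 0.132).

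In the nutrient signalling list 4 of 44 plasmids were higher and 1 lower at an unadjusted p under 0.05 (11.4%, against 6.94% of all plasmids), none at FDR < 0.1, and the median was 0.27. CYR1, adenylate cyclase of the Ras and protein kinase A pathway, had 14, 7 and 10 counts in AGY1612 and 0 in all AGY1611 libraries, so AGY1611 was at least 5.24-fold below T0 (FDR = 0.423). RGS2, which dampens glucose sensing by the same pathway, was at 2.70 ± 1.17 (FDR = 0.676), and REG1, a regulator of glucose repression, at 2.76 ± 1.23 (FDR = 0.689). Outside that list, SOK1, whose overexpression suppresses loss of protein kinase A, had 113, 31.4 and 57.3 CPM in AGY1612 and 298, 993 and 272 CPM in AGY1611 (-2.98 ± 0.808, FDR = 0.241). Of 33 tested autophagy plasmids 0 reached an unadjusted p under 0.05, where 6.94% of all plasmids did, and their median was -0.13.

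Loss of a plasmid from all day 28 libraries of 1 strain was seen on both sides, for 76 plasmids in AGY1612 only and 65 in AGY1611 only. The called ones were SNF7 and VMA3, an endosome and a vacuole gene. SNF7, the main subunit of the ESCRT-III complex that buds vesicles into endosomes, is a chromosome XII gene. It had 0 counts in all 3 day 28 libraries of AGY1612, against 29, 12 and 41 in AGY1611, after 108 to 121 CPM at T0 in AGY1612 and 109 to 121 CPM in AGY1611. AGY1612 was thus at least 28.8-fold below T0, and the bound on the strain difference was -3.06 on the log2 scale (FDR = 0.0407), and -2.22 without day 28 replicate 3 of AGY1611 (FDR = 0.0715). With the replicate block within strain the FDR was 0.112. At day 1 SNF7 was still present in all libraries, at 14 to 39.5 CPM in AGY1612 and 27.6 to 48.9 CPM in AGY1611.

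VMA3 encodes the ring proteolipid of the vacuolar ATPase, the proton pump that acidifies the vacuole. AGY1612 had 0 counts in all 3 day 28 libraries and AGY1611 had 38, 40 and 103, after 90.2 to 98.3 CPM at T0 in AGY1612 and 92.2 to 103 CPM in AGY1611. It was at least 23.8-fold below T0 in AGY1612, and the change in AGY1611 was -0.37 ± 0.943 (FDR = 0.85). The bound on the difference was -4.21 on the log2 scale (FDR = 0.0652). Replicate 3 was the high AGY1611 library, and without it the bound was -3.10 (FDR = 0.146). At day 1 the groups overlapped widely, with 72.2, 15.6 and 99.6 CPM in AGY1612 and 18.2, 64.5 and 444 CPM in AGY1611.

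The remaining vacuolar ATPase plasmids did not follow VMA3. Of 19 tested, 2 were higher and VMA3 alone lower at an unadjusted p under 0.05 (15.8%, against 6.94% of all plasmids), with a median of -0.33, or -0.15 with plasmids at 0 counts set to the floor. VMA1, the catalytic subunit, fell in both strains, to 2, 27 and 3 counts in AGY1612 and 0, 0 and 1 counts in AGY1611 (FDR of the difference 0.427). VMA7, a peripheral subunit, had 572, 1008 and 657 CPM in AGY1612 and 491, 420 and 360 CPM in AGY1611 (1.08 ± 0.506, FDR = 0.689). VMA16, which encodes another ring proteolipid, had 531, 335 and 434 CPM in AGY1612 and 383, 198 and 775 CPM in AGY1611, a difference of -0.15 (interval -1.51 to 1.21) whose sign turned in 4 other fits.

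Transport genes that missed the threshold included PHO84, the high-affinity phosphate transporter, with 30.8, 32.3 and 32.4 CPM in AGY1612 and 559, 121 and 154 CPM in AGY1611. It fell in AGY1612 (-3.32 ± 0.564, FDR = 0.000732), and the difference was -3.14 ± 0.742 (FDR = 0.119). Replicate 1 was the high AGY1611 library, and without it the difference was -2.07 (FDR = 0.184). VPS9, an activator of the endosomal Rab5 proteins, kept 10, 11 and 13 counts in AGY1612 and 1, 0 and 0 in AGY1611, a difference of 5.38 from the counts (counting interval 2.90 to 10.68, FDR = 0.177). Among the 44 tested secretion plasmids, 3 were higher and 4 lower at an unadjusted p under 0.05 (15.9%, against 6.94% of all plasmids), with a median of 0.25. SEC2, an exchange factor for secretory vesicles, had 140, 1155 and 336 CPM in AGY1612 and 105, 84.3 and 86.3 CPM in AGY1611 (FDR = 0.427). ERD2, the receptor that returns proteins to the endoplasmic reticulum, had 39, 116 and 41.1 CPM in AGY1612 and 211, 488 and 294 CPM in AGY1611 (FDR = 0.55), and it rose in AGY1611 (2.19, FDR = 0.0343).

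AIM39, a mitochondrial protein with no assigned function, was the third plasmid called in opposite directions, after SBP1 and POR1. At day 28 it had 160, 76 and 61.6 CPM in AGY1612 and 570, 993 and 846 CPM in AGY1611, below T0 levels of 340 to 369 CPM in AGY1612 and above those of 347 to 376 CPM in AGY1611. It fell in AGY1612 (-1.86 ± 0.448, FDR = 0.0103) and rose in AGY1611 (1.17 ± 0.432, FDR = 0.0925). The difference was -3.03 ± 0.622 (8.15-fold, FDR = 0.0407), and limma gave an FDR of 0.156. At day 1 AIM39 was at 368, 137 and 441 CPM in AGY1612 and 443, 762 and 1142 CPM in AGY1611, a difference of -1.30 (unadjusted p = 0.0426).

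A strain difference of the same sign, without a call, was seen for GEP7, another mitochondrial protein, and for EMI1, which is needed for early meiotic gene induction. GEP7 had 65.6, 131 and 41.1 CPM in AGY1612 and 731, 451 and 362 CPM in AGY1611 (-2.74 ± 0.699, FDR = 0.161). It fell in AGY1612 (-1.6, FDR = 0.0372), and its AGY1611 change of 1.14 was not called (FDR = 0.151). EMI1 had 140, 48 and 146 CPM in AGY1612 and 842, 569 and 525 CPM in AGY1611 (-2.57 ± 0.657, FDR = 0.161). It rose in AGY1611 (1.91, FDR = 0.014), and its AGY1612 change of -0.66 was not called (FDR = 0.375). NSP1, a nuclear pore protein, had 5, 80 and 93 counts in AGY1612 and 1, 0 and 0 in AGY1611, a difference of 7.44 from the counts (counting interval 4.96 to 12.74, FDR = 0.119). MTC5, a subunit of the SEA complex of TOR regulation, had 4, 97 and 195 counts in AGY1612 and none in AGY1611, a difference of at least 4.83 (FDR = 0.129). The high values of NSP1 and MTC5 came from replicates 2 and 3 of AGY1612, with replicate 1 at 10.3 and 8.21 CPM.

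ACS2, an acetyl-CoA synthetase, had 0, 3 and 0 counts in AGY1612 and 49, 53 and 25 in AGY1611, a difference of -5.16 from the counts (counting interval -7.44 to -3.62, FDR = 0.119). It fell in both strains (FDR = 0.000208 in AGY1612 and 0.092 in AGY1611). COM2, a transcription factor, had 0 counts in all 3 AGY1612 libraries and 5, 42 and 13 in AGY1611, a bound of -2.37 on the log2 scale (FDR = 0.163). RPL11B, 1 of the pair of genes for ribosomal protein L11, had 80, 128 and 116 CPM in AGY1612 and 529, 334 and 387 CPM in AGY1611. It fell in AGY1612 (-1.90 ± 0.351, FDR = 0.00157) and changed by 0.07 ± 0.337 in AGY1611, a difference of -1.98 ± 0.483 (FDR = 0.128).

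As a group, cytosolic ribosomal proteins stayed near the background. Of 128 tested, 2 were higher and 6 lower at an unadjusted p under 0.05, 6.25% in all against 6.94% of all plasmids, and the median was -0.08. After RPL11B the lowest p-values were those of RPS11B, at 22.6, 21 and 8.65 CPM in AGY1612 and 99.4, 264 and 86.3 CPM in AGY1611 (-3.04 ± 0.939, FDR = 0.334), and RPS9A (-1.96 ± 0.719, FDR = 0.537). Ribosome assembly factors had 2 higher and 3 lower of 87. Chaperones had 2 higher of 45, with SSA2, a cytosolic Hsp70, at 199, 430 and 71.3 CPM in AGY1612 and 23.5, 14.9 and 40.9 CPM in AGY1611 (3.12 ± 0.881, FDR = 0.244). The proteasome had 1 higher of 35, the ubiquitin list 1 higher and 2 lower of 36, and the stress response list 2 lower of 43.

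**Figure D4:**
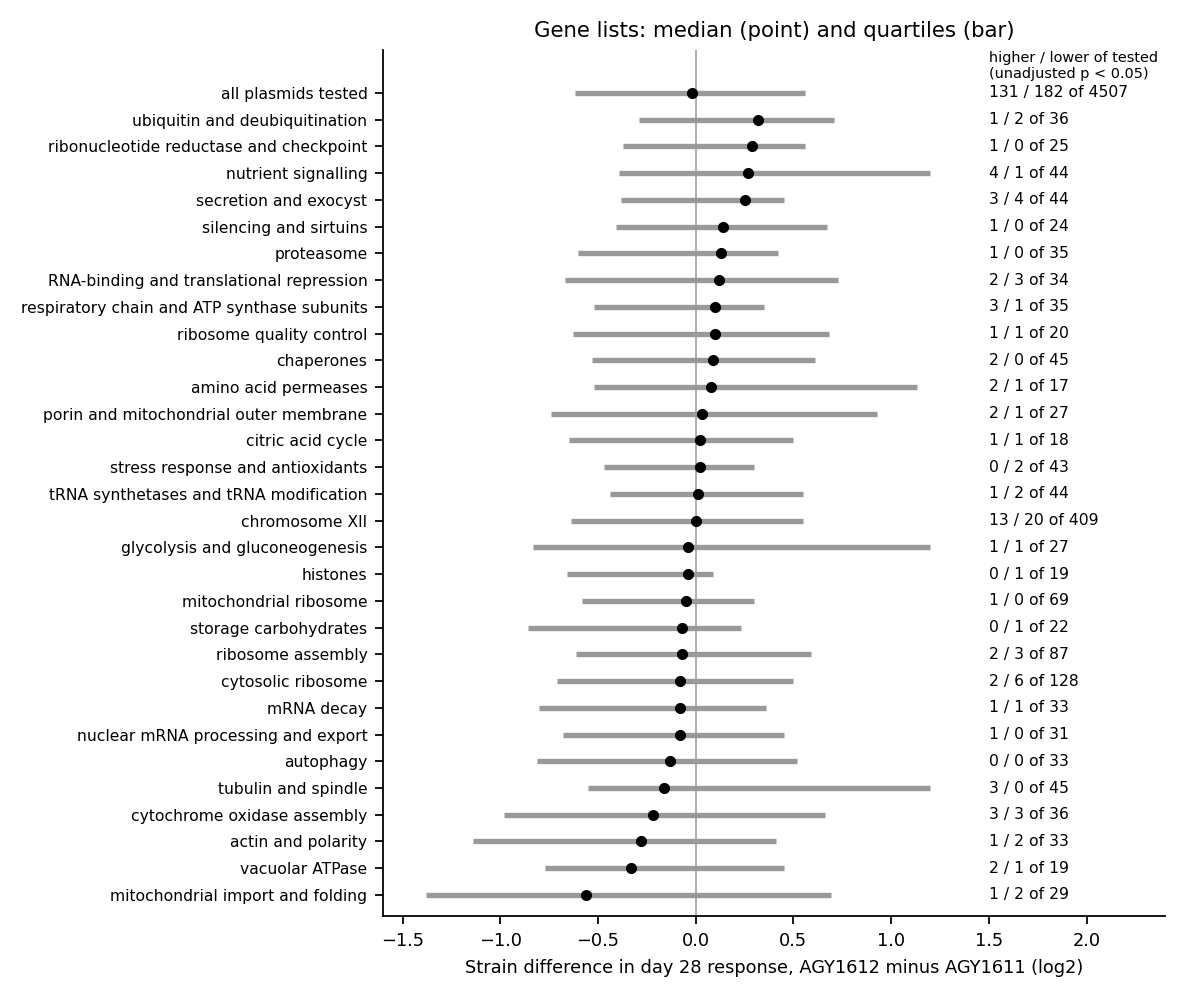
Median (point) and quartiles (bar) of the strain difference in day 28 response (log2, AGY1612 minus AGY1611) for 30 gene lists and for all plasmids tested, with the number higher and lower at an unadjusted p under 0.05 out of those tested. Medians run from -0.56 (mitochondrial import and folding) to 0.32 (ubiquitin), and the quartiles of every list take in 0.

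Chromosome XII plasmids, whose genes AGY1612 already carries in excess, made up 409 of the plasmids tested. Of these 13 were higher and 20 lower at an unadjusted p under 0.05 (8.07%, against 6.83% of the 4098 others), and the called pair SNF7 and KNS1 was lower in AGY1612. Median differences were 0.0 for chromosome XII and -0.02 for the others. In AGY1612, 24 chromosome XII plasmids rose (5.87%, against 7.15% of the others) and 72 fell (17.6%, against 12.5%). In AGY1611, 21 rose (5.13%, against 5.12% of the others) and 46 fell (11.2%, against 9.32%). The HIS3 plasmid, checked because the strains differ at that locus, averaged 601.8 CPM in the day 28 libraries of AGY1612 and 947 CPM in those of AGY1611, and its difference was -0.73 ± 0.839 (FDR = 0.977).

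The called plasmids varied in how far the strains had parted by day 1. No plasmid passed FDR < 0.1 for the strain difference at day 1 (0 of 4507, 0.0%, and 0 with DESeq2), and 172 (3.82%) had an unadjusted p under 0.05, 93 higher (2.06%) and 79 lower (1.75%) in AGY1612. Day 1 differences with an unadjusted p under 0.05 were found for POR1 (1.67), FMP48 (1.87) and AIM39 (-1.30), all of the same sign as at day 28. They were picked by their day 28 differences, which share the T0 libraries and the cultures, so the like sign is no separate support. For NPL3, RNR2 and OM14 the day 1 values were -0.06, -0.07 and 0.31, with intervals of -1.37 to 1.25, -2.0 to 1.87 and -1.68 to 2.29. No test of day 28 against day 1 was made for the strain difference.

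Most plasmids that changed in both strains did so in the same direction. Of 4507 tested, there were 95 that rose and 284 that fell in both, against 3 called in opposite directions. Others were called in a single strain. In AGY1612 only, 221 rose and 298 fell, and in AGY1611 only, 134 rose and 143 fell. TSC10, of sphingolipid synthesis, stood at 1028, 905 and 1380 CPM in AGY1612 and 854, 1435 and 888 CPM in AGY1611 at day 28, with changes of 1.49 and 1.44. TIM12, of mitochondrial import, was at 1196, 1793 and 1073 CPM in AGY1612 and 1155, 1229 and 1482 CPM in AGY1611. NUP60, a nuclear pore protein, fell to 0, 8 and 6 counts in AGY1612 and 2, 2 and 0 counts in AGY1611. DMO2 fell to 4, 3 and 0 counts in AGY1612 and 4, 1 and 2 counts in AGY1611. Differences for these 4 were 0.05, 0.04, 1.86 and 0.30, and each interval takes in 0.

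**Figure D5:**
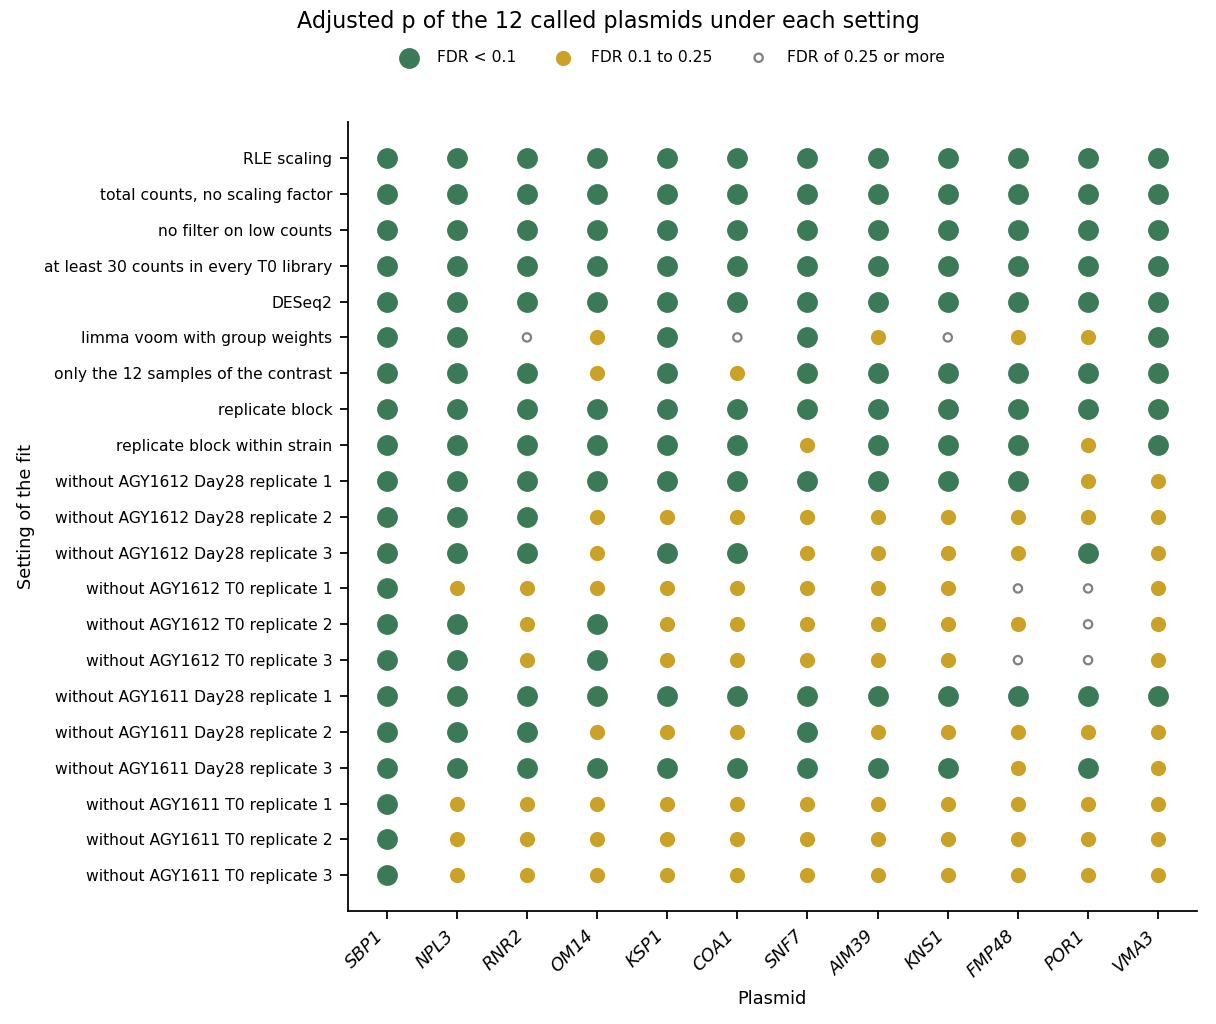
Adjusted p (FDR) of the strain difference for the 12 called plasmids (columns) under each other setting of the fit (rows), with large points for FDR < 0.1, medium points for 0.1 to 0.25 and open points for higher values. SBP1 keeps its call in every row, whereas most others lose it in the 6 fits that leave out a T0 library.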

How the data were processed

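Barcodes of 3 replicates of each strain at T0, day 1 and day 28 were measured. The values deposited by the authors are raw, non-normalized counts of barcode reads per plasmid. The counting program is not given in the sources used here, and the TMM step that the authors ran with edgeR came later. Of 4872 rows, 86 were at 0 in all samples. The empty vector, at most 0.0296% of any library, was left out of library sizes and tests. Symbols and gene chromosomes come from systematic names and the RefSeq table of assembly R64, with 4865 rows matched, and 54 genes have 2 entries (suffixes 1 and 2).

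The filterByExpr function, given the 6 groups, removed 364 plasmids, and counts were then scaled by TMM and tested with the quasi-likelihood F-test of edgeR 4.0.16 in R 4.3.3, with 1 coefficient per group over all 18 samples, two-sided and adjusted by Benjamini-Hochberg over 4507 plasmids. The SE is the log2 difference divided by the square root of F, and intervals are 95%. A floor of 3 counts per library stands in for groups at 0. Bounds take the change of the other strain as exact. Alternatives were RLE and unscaled totals, no filter or at least 30 counts in every T0 library, DESeq2 1.42.0, limma 3.58.1 (voom, group weights), the 12 samples alone, the replicate number as a block, FDR < 0.05 and each replicate left out, with bounds recomputed without single libraries added after seeing the data. The fit was also run on simulated counts with 1 spread per group and independent libraries. That setting is simpler than the data, and no result here rests on it.

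Named are all plasmids at FDR < 0.1, the next 12 by p, up to 3 members of each of 30 lists with the lowest p (unadjusted under 0.05), other entries and family members, plasmids called in opposite directions and 2 shared examples per direction. Of the 88 plasmids this gives, those on lists with no call are in part given by counts only. The comparison, the lists and the named plasmids were chosen with earlier results of these data known.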

Additional observations from a re-analysis of the deposited data

Results flagged for a closer look

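For 12 plasmids the day 28 response of AGY1612 differed from that of AGY1611 by a test of the difference itself (edgeR quasi-likelihood interaction, adjusted over 4507 plasmids). On the log2 scale, AGY1612 minus AGY1611, the values were -3.57 for SBP1, -3.75 for NPL3, -4.82 for KSP1, -3.03 for AIM39 and -3.03 for KNS1, and 3.85 for COA1, 3.52 for FMP48 and 2.31 for POR1. From the counts they were 6.6 for RNR2 and -7.02 for OM14, where 1 group holds 1 or 2 counts. As bounds they were -3.06 for SNF7 and -4.21 for VMA3, both at 0 counts in AGY1612. SBP1 alone kept its call whichever library was left out.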

How the results depend on the processing

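Against 12 plasmids called for the strain difference in day 28 response, RLE scaling, unscaled totals, no filter and the stricter filter each gave the same 12. DESeq2 called 53, all 12 among them, and the fit to the 12 samples alone called 20, of which 10 were shared. Limma with group weights also called 12, but 5 were shared (SBP1, NPL3, KSP1, SNF7 and VMA3). At FDR < 0.05 there were 9. Leaving out 1 library gave 1 to 27 calls, and the cause was not tested. Day 1 gave 0 calls in each of these settings and in each fit without 1 library. Same-numbered T0 and day 28 libraries showed little correlation of their deviations (-0.001 to 0.027 in AGY1612 and -0.066 to 0.028 in AGY1611). T0 replicates varied little, so this cannot decide whether the libraries were paired. The replicate number as a block gave 12 calls, the same 12, and as a block within strain 11, of which 10 were shared, and both gave 0 at day 1. Signs turned for 7 named plasmids and for none of the 12. In limma the difference was -0.13 for DMO2, 0.1 for VMA16 and -0.05 for RNR3, and with the block within strain 0.04 for VMA16. With 1 library left out it ran from -0.18 (without day 28 replicate 3 of AGY1612) to 7.63 for KIP3_2, from -0.9 to 0.31 for RNR4_2, the second RNR4 entry, from -0.78 to 1.0 for DMO2, from -0.46 to 0.5 for VMA16, from -0.11 to 0.37 for TSC10, from -0.16 to 0.21 for TIM12 and from -0.29 to 0.46 for RNR3. Scaling moved the median of all plasmids by under 0.1. Precision was limited by day 28 depth and spread. In the lowest of 3 bins of T0 abundance, the median SE was 1.61.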

Other observations

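The empty vector, which no comparison above uses, was unevenly present. The T0 pools held 5, 579 and 892 counts of it in AGY1612 and 20, 1370 and 261 in AGY1611 (replicates 1 to 3). The day 1 pools held 0, 317 and 0 counts in AGY1612 and 3, 268 and 3 in AGY1611, and the day 28 pools 0, 181 and 0 in AGY1612 and 1, 244 and 1 in AGY1611. At day 1 and day 28 nearly all of its counts were thus in replicate 2 of each strain, while at T0 replicates 2 and 3 of both strains held it. Same-numbered day 1 and day 28 libraries also deviated together, with correlations of their deviations from the group means of 0.144 to 0.311 in AGY1612 and 0.332 to 0.503 in AGY1611. The study's methods describe these 2 days as portions of the same cultures. The main fit took all libraries as independent, so the spread behind each SE and FDR rests on libraries that are in part related. Only the fits with the replicate number as a block allow for this.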
